A study of Homo sapiens with 6 samples.

Results

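The ribosome biogenesis and RNA polymerase I genes are 46 of the 58735 genes in the deposited count table. They were chosen by gene name from a fixed list of nucleolar factors, many of them MYC targets, and all 46 were found and tested. They were measured in MOLT-3 cells, a human T-cell acute lymphoblastic leukaemia line grown in culture. Of 6 poly(A) RNA libraries, 3 came from cells given compound E and 3 from cells given DMSO, the vehicle. Compound E inhibits gamma-secretase, the protease that releases the active intracellular part of NOTCH receptors, and the title of the series concerns activating NOTCH1 mutations in this leukaemia. Both groups are the same line with no label of a further genetic change, so the comparison stands for 1 line. No source used here gives the dose, the duration or whether the cultures were separate, so the p-values reflect the spread between these libraries alone, which may be technical. A called gene has an adjusted p under 0.05 in edgeR's quasi-likelihood test, where p-values were adjusted by Benjamini-Hochberg across the 16926 genes tested.

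Ribosomes are assembled in the nucleolus, where RNA polymerase I transcribes a long precursor of the ribosomal RNAs. Small nucleolar ribonucleoproteins modify that precursor, the small subunit processome folds and cuts the part that becomes 18S rRNA, and other factors mature the large subunit before export to the cytoplasm. The transcription factor MYC is known to bind the promoters of many of these genes, and MYC is a known NOTCH1 target in T-cell leukaemia. The libraries hold poly(A) messenger RNA, so the values are messages of the assembly factors and not rRNA or ribosome output.

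Library totals were 17316138 to 19845114 counts, and the spread between replicates was small, with a biological coefficient of variation of 2.72%. Pairs of libraries within a group differed by more than counting noise, with chi-square values of 1.65 to 2.75 per degree of freedom, so no library was a repeat deposit. The NOTCH targets fell in the compound E libraries, as for HES4, a transcriptional repressor, which averaged 2.67 ± 0.787 CPM, counts scaled to a common library total, with compound E and 79.7 ± 5.14 CPM with DMSO (SD, n = 3 each), and DTX1, NOTCH3 and HES1 fell too, with log2 fold changes of -4.60, -3.03 and -2.16. All 14 T-lineage markers exceeded 1 CPM in every library. Their summed level was 6013 to 6113 CPM with compound E and 4897 to 4940 CPM with DMSO. The B-cell genes PAX5 and MS4A1, the myeloid gene MPO, the erythroid gene HBB and the fibroblast genes COL1A2 and DCN had 0 counts in every library. Of the 5 markers in each of those 4 lists, 1 B-cell, 1 myeloid and 1 epithelial or fibroblast marker exceeded 1 CPM in every library, and the highest means were 13.4 CPM for CD79A, 10.5 CPM for COL1A1 and 2.11 CPM for ITGAM. The summed level was 13.8 to 15.1 CPM with compound E and 13.8 to 15.4 CPM with DMSO for the B-cell list, and 9.126 to 10.997 CPM with compound E and 11.5 to 12.9 CPM with DMSO for the epithelial and fibroblast list. It was 2.32 to 2.74 CPM with compound E and 2.80 to 2.98 CPM with DMSO for the myeloid list, and 1.11 to 2.02 CPM with compound E and 1.11 to 1.73 CPM with DMSO for the erythroid list. The part of these marker levels and of the T-lineage shift in the results below was not tested. The labels give no batch.

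Compound E was followed by small changes of the ribosome biogenesis genes in both directions, with no common shift relative to all tested genes. Levels are scaled within each library, so a change shared by most messages of a cell would not show. Of the 46 members, 7 rose and 13 fell, against 18.9% and 19.4% of all tested genes that were called higher and lower. The 20 called members are 43.5% of the list, beside 38.3% of all tested genes. Because 45 members averaged at least 10 CPM, the nearer background is the 9722 tested genes at that level, of which 50.9% were called, so the members' share was not above that background. In bulk libraries, fewer cells of a kind and less RNA per cell cannot be told apart.

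The median log2 fold change of the members was -0.0035, and that of all tested genes was -0.0034. Member changes ran from -0.62 to 0.28 with an SD of 0.176, against an SD of 0.47 over all tested genes. At least 1.2-fold changes were called in 5 members, NOB1, NPM1, SHQ1, UTP15 and NOP16, beside 21.0% of all tested genes, and no member moved 2-fold. The groups did not overlap in 23 members, 10 higher and 13 lower with compound E, beside 46.8% of all tested genes. All tested genes include many below 10 CPM. The SD and these shares were not taken over the genes of at least 10 CPM alone, so the members were not set against genes of like level here. Among the 26 members that did not pass the test, 15 had a fold change above 0 and 11 below 0.

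The 95% confidence interval of each gene's log2 fold change, taken singly and not adjusted over genes, shows how large an undetected change could be. It lay within 1.1-fold in either direction for 13 members and within 1.5-fold for 44. For the members not called, leaving aside NOP2, which had few counts, the intervals reached no lower than -0.19 and no higher than 0.26. Of the 20 calls, 11 held under each of 17 other settings, which included another scaling, another tool and leaving out 1 library. Those were FBL, SHQ1, NPM1, DDX21, POLR1E, UTP15, NOP14, DDX10, NOB1, PES1 and NOP16, whereas NHP2, GAR1, NOLC1, NCL, UBTF, TAF1D, PNO1, RRP12 and GNL3 lost the call under at least 1 setting. Of the 26 members not called, 4 were called under at least 1 of these settings, NOP56, UTP4, NAT10 and BOP1. The count of members that rose was 4 with DESeq2, 4 without DMSO library 3 and 4 without compound E library 3. It was 3 with limma on unfiltered FPKM, which are counts scaled for exonic length and depth.

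**Figure D1:**
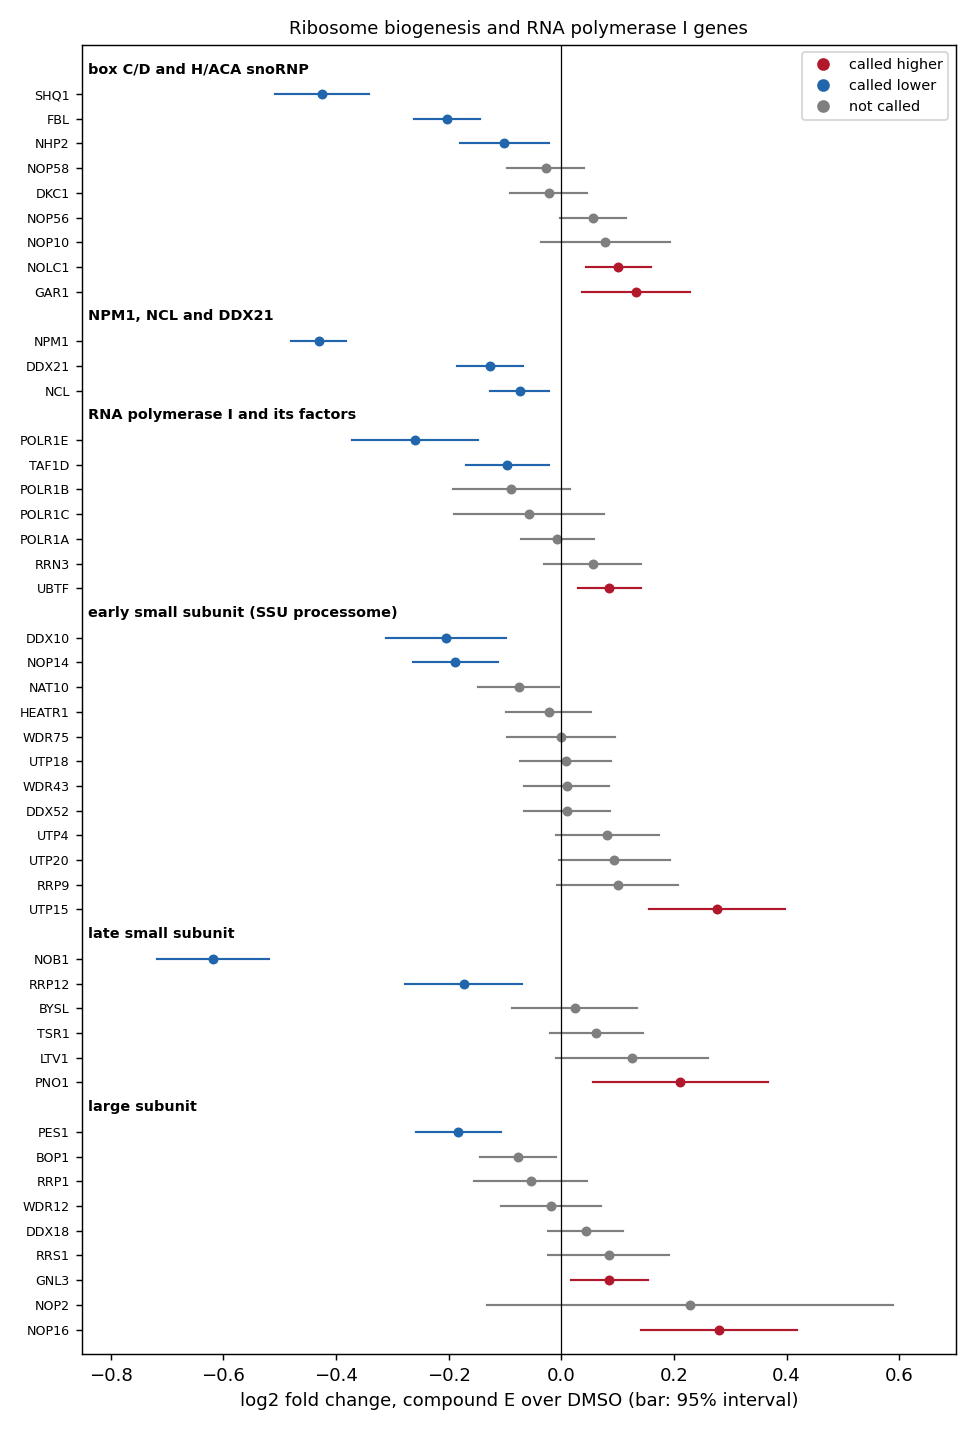
Log2 fold change of compound E over DMSO for each of the 46 members, grouped by role; points are edgeR estimates, bars are 95% confidence intervals, and colour gives the call. Most points lie within 0.2 of 0, and NOB1, NPM1 and SHQ1 stand furthest to the left, at -0.62, -0.43 and -0.42.

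Promoter windows were available for 38 members in the RefSeq table for GRCh38.p14, each with 250 bases before and 50 from the annotated start of the gene. The sequences below are 6 of them. CACGTG, the E-box that MYC and its partner MAX are known to bind, stands near the start in 4 of these. It is missing from the windows of NOB1 and NPM1, the members that fell most. The windows of UTP15 and NOP16, the called members that rose most, have no CACGTG either and are not printed. Capitals mark CACGTG. FBL (chr19:39846330-39846629, minus strand) and NOP14 (chr4:2963357-2963656, minus strand) fell, PNO1 (chr2:68157638-68157937, plus strand) rose, and WDR43 (chr2:28894417-28894716, plus strand) was not called. NOB1 is shown at chr16:69754877-69755176 (minus strand), and NPM1 at chr5:171387599-171387898 (plus strand), one of 2 windows of that gene in the table. Each is written from 5′ to 3′ along the gene's own strand.
FBL: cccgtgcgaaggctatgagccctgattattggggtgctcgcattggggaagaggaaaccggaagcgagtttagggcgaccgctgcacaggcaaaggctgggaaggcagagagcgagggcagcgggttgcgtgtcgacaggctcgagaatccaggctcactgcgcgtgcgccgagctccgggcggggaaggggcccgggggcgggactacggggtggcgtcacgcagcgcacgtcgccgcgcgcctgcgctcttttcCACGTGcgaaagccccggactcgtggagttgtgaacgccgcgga
NOP14: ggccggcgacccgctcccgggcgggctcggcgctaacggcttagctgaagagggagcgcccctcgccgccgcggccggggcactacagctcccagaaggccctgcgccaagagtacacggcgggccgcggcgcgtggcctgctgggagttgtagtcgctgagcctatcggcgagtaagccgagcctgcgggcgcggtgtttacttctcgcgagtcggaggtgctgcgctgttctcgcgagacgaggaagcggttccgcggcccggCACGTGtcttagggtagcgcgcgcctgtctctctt
PNO1: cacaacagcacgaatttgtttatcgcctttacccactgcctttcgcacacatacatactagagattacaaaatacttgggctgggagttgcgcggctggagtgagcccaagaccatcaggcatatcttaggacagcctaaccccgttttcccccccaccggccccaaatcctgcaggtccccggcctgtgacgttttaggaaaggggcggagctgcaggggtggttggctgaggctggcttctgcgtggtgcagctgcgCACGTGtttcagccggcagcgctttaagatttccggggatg
WDR43: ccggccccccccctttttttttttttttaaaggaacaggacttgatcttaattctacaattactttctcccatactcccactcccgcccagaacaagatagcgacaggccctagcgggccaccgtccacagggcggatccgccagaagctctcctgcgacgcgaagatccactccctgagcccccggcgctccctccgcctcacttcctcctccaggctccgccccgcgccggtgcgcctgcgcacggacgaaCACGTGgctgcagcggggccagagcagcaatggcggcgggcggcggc
NOB1: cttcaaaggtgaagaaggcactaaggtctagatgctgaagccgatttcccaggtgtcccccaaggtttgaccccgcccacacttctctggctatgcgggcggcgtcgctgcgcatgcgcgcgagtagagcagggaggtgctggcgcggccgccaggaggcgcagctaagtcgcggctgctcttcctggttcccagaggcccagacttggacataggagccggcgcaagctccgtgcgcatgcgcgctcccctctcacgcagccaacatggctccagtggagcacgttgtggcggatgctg
NPM1: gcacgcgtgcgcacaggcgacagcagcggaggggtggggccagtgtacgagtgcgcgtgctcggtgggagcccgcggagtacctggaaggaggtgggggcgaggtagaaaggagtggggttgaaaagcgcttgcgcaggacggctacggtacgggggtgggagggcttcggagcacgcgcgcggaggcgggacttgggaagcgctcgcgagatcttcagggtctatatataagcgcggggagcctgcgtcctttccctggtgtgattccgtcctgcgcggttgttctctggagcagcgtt

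The letters CACGTG, which read the same on both strands, were present in 17 of the 38 members with a window, or 44.7%. The share was 8.77% among 27305 genes in the RefSeq table and 12.7% among 9993 tested protein-coding genes. The list was drawn up as one with many MYC targets, and the part of that choice in the 44.7% was not tested. Of 19 copies in members, 18 began within 100 bases of the annotated start, as in the FBL, NOP14, PNO1 and WDR43 windows printed above. Other short motifs were less unequal, since GGGCGG or its reverse complement CCGCCC was in 81.6% of members with a window and 76.5% of tested protein-coding genes. GCGGAAG or CTTCCGC was in 10.5% of members and 15.2% of tested protein-coding genes. None of the 3 motifs contains another, and a match of letters shows no binding. A window without CACGTG shows no lack of binding either, since sites outside the windows and E-boxes of other letters were not sought.

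Among members with a window, both those with and those without CACGTG held genes that rose and genes that fell. Of the 17 members with CACGTG, 3 rose and 4 fell. Counting all 17, called or not, 12 had a log2 fold change above 0 and 5 below, with a median of 0.08. Of the 21 members with a window and no CACGTG, 3 rose and 7 fell. Counting all 21, 6 had a log2 fold change above 0 and 15 below, with a median of -0.02. Among 1273 tested protein-coding genes with CACGTG in their windows, 269 rose and 309 fell, or 45.4% called in all, with 619 fold changes above 0 and 654 below. The difference between the members with and without the letters was not tested.

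MYC itself fell in the same libraries. It had 219, 214 and 225 CPM with compound E, against 385, 393 and 403 CPM with DMSO, a log2 fold change of -0.84 ± 0.0286 (SE, adjusted p = 5.15e-25). The groups lay far apart, and MYC moved further than any of the 46 members, at 1.79-fold lower. Its partner MAX (-0.31), its relative MYCN (-1.29) and the MAX-binding repressor MXI1 (-0.45) also fell, while the repressors MXD3 (0.38), MXD4 (0.24) and MNT (0.27) rose.

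NPM1, NCL and DDX21, nucleolar proteins that act at several steps of assembly, all fell, with 3 of 3 called lower. Of all tested genes, 19.4% were called lower. The members were chosen with earlier results of these data known, so the share in this small role was not tested. NPM1, nucleophosmin, is a nucleolar chaperone that takes part in ribosome assembly and export, and its gene lies at chr5:171387116-171411137 on the plus strand of GRCh38. NPM1 had 693, 719.5 and 715 CPM in the compound E libraries, against 965, 953 and 949 CPM in the DMSO libraries. All 3 compound E values lay below all 3 DMSO values, a fall of 1.35-fold (log2 fold change -0.43 ± 0.0241, SE; adjusted p = 5.5e-18). Near-identical copies could share reads with this gene, and 45 annotated NPM1 pseudogenes together held 483, 463 and 520 counts with compound E, against 686, 714 and 605 counts with DMSO. That sum is 3.73% of the NPM1 counts.

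DDX21, an RNA helicase that links RNA polymerase transcription with rRNA processing, had 219, 226 and 226 CPM with compound E, against 248, 243 and 240.4 CPM with DMSO. Its groups did not overlap, with a log2 fold change of -0.13 ± 0.0288 (SE, adjusted p = 0.000513). NCL, nucleolin, which binds the rRNA precursor, had 1142, 1186 and 1250 CPM with compound E, against 1264, 1267 and 1233 CPM with DMSO. Compound E library 3 reached into the DMSO range, and the call of NCL at -0.07 (adjusted p = 0.0228) is the least separated of the 3. That call was lost under 9 of the 17 other settings. They included leaving out DMSO library 1 (adjusted p = 0.0866), DMSO library 2 (0.102), compound E library 1 (0.257) or compound E library 2 (0.0507), and DESeq2 (0.0508).

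Among 9 genes of the small nucleolar ribonucleoproteins, 2 rose and 3 fell, with a median log2 fold change of -0.02. These particles carry guide RNAs and are of 2 classes, box C/D particles that methylate rRNA and H/ACA particles that convert uridine to pseudouridine. FBL, fibrillarin, the methyltransferase of box C/D particles, had 264, 261 and 271 CPM with compound E, against 314, 297 and 305 CPM with DMSO. Its groups were apart, and FBL fell by 0.20 on the log2 scale (SE 0.0286, adjusted p = 2.37e-07). The scaffold proteins of the same particle did not pass the test, with NOP56 at 341 ± 9.75 CPM with compound E and 328 ± 10.8 CPM with DMSO, and NOP58 at 136 ± 5.26 CPM with compound E and 139 ± 2.23 CPM with DMSO (SD, n = 3 each). NOP56 had an adjusted p of 0.125 and was called higher without DMSO library 1 (0.0342), and NOP58 had 0.571.

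SHQ1, the chaperone that holds the H/ACA synthase DKC1 before a particle is assembled, moved most in this role. It had 65.7, 66.9 and 63.5 CPM with compound E, against 85.6, 86.2 and 91.7 CPM with DMSO. The groups were well apart, with a log2 fold change of -0.42 ± 0.0409 (SE, adjusted p = 3.49e-11), or 1.34-fold lower. Its client DKC1 was not called, at 152 ± 7.24 CPM with compound E and 154 ± 2.50 CPM with DMSO (adjusted p = 0.648).

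The core H/ACA proteins that bind with DKC1 differed in direction. NHP2 fell (84.1 ± 1.23 CPM with compound E, 90.2 ± 3.94 CPM with DMSO; log2 fold change -0.10, adjusted p = 0.0373), GAR1 rose (50.9 ± 0.768 CPM with compound E, 46.4 ± 1.39 CPM with DMSO; 0.13, adjusted p = 0.0249), and NOP10 was not called at 0.08 (adjusted p = 0.295). NOLC1, a phosphoprotein that binds these particles, rose (273 ± 2.49 CPM with compound E, 254 ± 7.82 CPM with DMSO; 0.10, adjusted p = 0.00431). RMND5B, a gene on the opposite strand, covers 27.4% of the NHP2 exonic bases and was not called. It had 46.1 CPM with compound E and 44.5 CPM with DMSO, so reads of the pair could be mixed if strand was not used in counting. The small calls of NHP2, GAR1 and NOLC1 depend on single libraries. NHP2 lost the call under 8 of the 17 other settings. They included leaving out DMSO library 2 (adjusted p = 0.293), compound E library 1 (0.128) or compound E library 3 (0.0552), and DESeq2 (0.117). GAR1 was lost without DMSO library 1 (0.0661), DMSO library 3 (0.106) or compound E library 3 (0.0678), and with DESeq2 (0.0821). NOLC1 was lost without DMSO library 2 (0.0575) and with limma on log2(FPKM + 1) without a filter.

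Of 7 RNA polymerase I genes, 1 rose and 2 fell, and the subunits that form the catalytic centre were not called. POLR1A, the largest subunit, had 149.7, 154 and 148 CPM with compound E, against 154, 151 and 149 CPM with DMSO. The groups overlapped, and the log2 fold change was -0.01 with a 95% interval from -0.07 to 0.06. POLR1B, the other large subunit of that centre, was at -0.09 (adjusted p = 0.181), and POLR1C, an assembly subunit shared with RNA polymerase III, at -0.06 (adjusted p = 0.532).

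POLR1E, a subunit that takes part in initiation, was the polymerase member that fell. It had 36.6, 32.6 and 36.1 CPM with compound E, against 41.0, 40.9 and 44.4 CPM with DMSO. Every compound E value was below every DMSO value, with a log2 fold change of -0.26 ± 0.0554 (SE, adjusted p = 0.000212).

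The factors that load the polymerase differed. UBTF, which binds and shapes the rRNA gene promoter, had 339, 340.3 and 352 CPM with compound E, against 317, 329.8 and 325 CPM with DMSO. The groups did not overlap and UBTF rose by 0.09 on the log2 scale (SE 0.0275, adjusted p = 0.0121). The UBTF call was lost without DMSO library 1 (0.0766) and with limma on log2(FPKM + 1) without a filter. TAF1D, a subunit of the promoter factor SL1, fell (90.7 ± 1.57 CPM with compound E, 96.9 ± 1.01 CPM with DMSO; -0.10, adjusted p = 0.0344). TAF1D lost the call under 11 of the 17 other settings. They included leaving out DMSO library 1 (0.122), DMSO library 2 (0.0629), DMSO library 3 (0.0823), compound E library 1 (0.0933) or compound E library 3 (0.0814), and DESeq2 (0.107). RRN3, which joins the polymerase to SL1, was not called at 0.06 (adjusted p = 0.321), and 3 RRN3 pseudogenes held counts equal to 17.0% of its own.

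The early small subunit role, the processome that assembles on the new transcript, held the most genes, 12, and had the lowest share of calls of the 6 roles, 1 higher and 2 lower. NOP14, a scaffold of the processome, had 94.5, 94.9 and 102 CPM with compound E, against 109, 112 and 111 CPM with DMSO. The groups were apart, with a log2 fold change of -0.19 ± 0.0371 (SE, adjusted p = 7.31e-05). The antisense gene NOP14-AS1 covers 17.1% of the exonic bases of NOP14 and was called in the other direction, at 0.22 (adjusted p = 0.0412), so reads of the pair could be mixed if strand was not used in counting.

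UTP15 belongs to the subcomplex that binds the precursor first, and it was the processome member that rose. It had 33.9, 33.7 and 30.4 CPM with compound E, against 27.3, 26.3 and 27.3 CPM with DMSO. The groups were apart, with a log2 fold change of 0.28 ± 0.0597 (SE, adjusted p = 0.000245). Its partners in that subcomplex were not called, with log2 fold changes of 0.08 for UTP4, 0.01 for WDR43, -0.00 for WDR75 and -0.02 for HEATR1. UTP4 was called higher without compound E library 1 (adjusted p = 0.034).

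DDX10, an RNA helicase, fell, with 36.0, 34.0 and 34.7 CPM with compound E, against 39.3, 40.2 and 41.3 CPM with DMSO (log2 fold change -0.20 ± 0.0528, SE; adjusted p = 0.00181). The remaining members of the role were not called. They were UTP18 (0.01), UTP20 (0.09), RRP9, which binds the U3 guide RNA (0.10), DDX52 (0.01) and NAT10, the 18S rRNA acetyltransferase (-0.07, adjusted p = 0.0933). NAT10 was called lower without compound E library 3 (0.0433), with upper quartile scaling (0.0385) and with a minimum of 5 CPM in 3 libraries (0.0375). UTP20 had groups that did not overlap, at 55.0, 50.6 and 49.3 CPM with compound E, against 47.9, 48.9 and 48.3 CPM with DMSO, and still missed the threshold (adjusted p = 0.129).

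Late small subunit maturation held the member that changed most. NOB1 is the endonuclease that makes the last cut of 18S rRNA in the cytoplasm, and its gene lies at chr16:69741867-69754940 on the minus strand. NOB1 had 40.5, 42.0 and 43.9 CPM with compound E, against 62.9, 68.5 and 62.5 CPM with DMSO. The lowest DMSO library was well above the highest compound E library, a fall of 1.53-fold (log2 fold change -0.62 ± 0.0488, SE; adjusted p = 1.58e-13). An antisense gene, AC092115.3, covers 20.2% of its exonic bases and had 0.0905 CPM with compound E and 0.123 CPM with DMSO. NOB1 is also one of the 21 members with a window and no CACGTG, of which 3 rose and 7 fell.

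PNO1, the RNA-binding partner of NOB1, moved the other way. It had 18.3, 21.6 and 21.0 CPM with compound E, against 18.3, 18.0 and 16.2 CPM with DMSO. The first compound E library lay in the DMSO range. The call at 0.21 ± 0.0766 (SE, adjusted p = 0.0265) was lost under 7 of the 17 other settings. They included leaving out DMSO library 3 (0.138), compound E library 2 (0.131) or compound E library 3 (0.0938), and DESeq2 (0.0936).

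RRP12, an export factor of the pre-40S particle, had 37.2, 37.2 and 37.3 CPM with compound E, against 41.5, 43.1 and 41.3 CPM with DMSO. Its groups were apart and RRP12 fell by 0.17 on the log2 scale (SE 0.0510, adjusted p = 0.00623), a call lost with limma on log2(FPKM + 1) (0.0514). The other pre-40S factors were not called, with BYSL at 0.02, TSR1 at 0.06 and LTV1 at 0.13 on the log2 scale, although the LTV1 groups did not overlap. Other annotated genes share 34.8% of the LTV1 exonic bases on the same strand. SRR, on the opposite strand, covers 20.7% of those of TSR1. The part of shared reads in these levels was not tested.

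**Figure D2:**
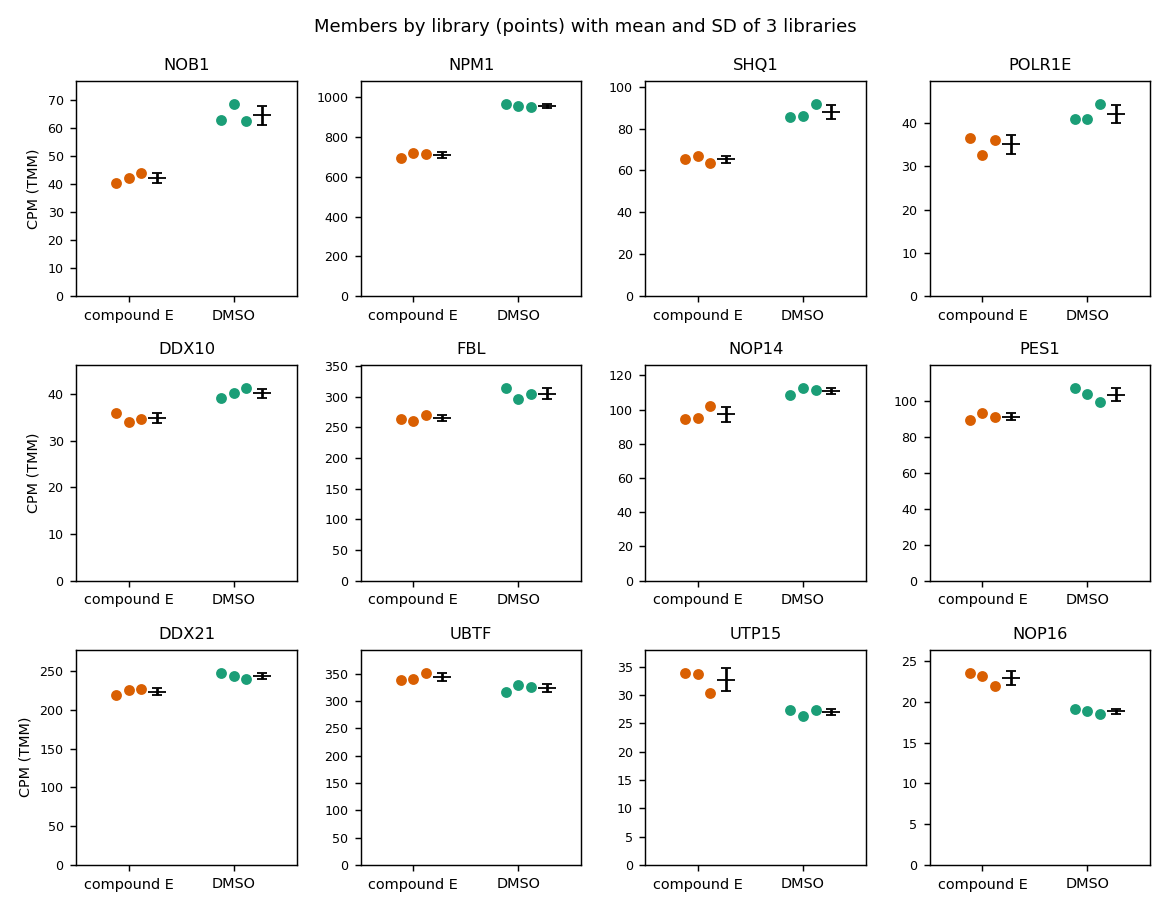
Level in CPM after TMM scaling for 12 members in each library, compound E left and DMSO right; points are libraries and the bar beside them is the mean with the SD of 3 libraries. In NOB1 the compound E libraries lie between 40.5 and 43.9 CPM and the DMSO libraries between 62.5 and 68.5 CPM, whereas the groups of DDX21 and UBTF are separated by a small step.

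Among 9 large subunit genes, 2 rose and 1 fell. PES1, BOP1 and WDR12 form the PeBoW complex, needed for large subunit rRNA processing. PES1 had 89.0, 93.3 and 91.0 CPM with compound E, against 107, 104 and 99.3 CPM with DMSO. The groups were apart, with a log2 fold change of -0.18 ± 0.0375 (SE, adjusted p = 0.000131). BOP1 was not called at -0.08 (adjusted p = 0.0691), with groups that did not overlap at 141, 135 and 145 CPM with compound E, against 146, 152 and 146 CPM with DMSO. It was called lower without compound E library 3 (0.0184), with upper quartile scaling (0.0285) and with a minimum of 5 CPM in 3 libraries (0.0267). WDR12 was not called either, at -0.02 (adjusted p = 0.779).

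NOP16 rose, with 23.6, 23.1 and 21.9 CPM with compound E, against 19.1, 18.9 and 18.5 CPM with DMSO. The groups were apart, with a log2 fold change of 0.28 ± 0.0685 (SE, adjusted p = 0.00106). ARL10, a gene on the opposite strand, covers 12.02% of the NOP16 exonic bases and fell by 0.33 (adjusted p = 2.18e-05), in the other direction, and reads of the pair cannot be told apart without strand. GNL3, nucleostemin, rose (129 ± 3.67 CPM with compound E, 122 ± 1.79 CPM with DMSO; 0.09, adjusted p = 0.0427). GNL3 lost the call under 12 of the 17 other settings. They included leaving out DMSO library 1 (0.102), DMSO library 2 (0.132), DMSO library 3 (0.0525), compound E library 2 (0.129) or compound E library 3 (0.0806), and DESeq2 (0.0977).

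The rest of the large subunit role was not called, with RRP1 at -0.05, DDX18 at 0.04 and RRS1, which helps to place the 5S particle, at 0.08. NOP2, a methyltransferase of 28S rRNA, had the lowest counted level of the members and the least precise estimate. It had 3.06, 3.04 and 3.61 CPM with compound E, against 2.85, 2.67 and 2.77 CPM with DMSO, and its 95% interval ran from -0.13 to 0.59. A second annotated gene, AC006064.6, covers 54.4% of its exonic bases on the same strand and had 0 counts in every library, and the part of shared reads in the NOP2 level was not tested.

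Levels per length spread widely among the members, from 0.636 to 216 FPKM averaged over the 6 libraries. Their median was 20.1 FPKM, against 4.24 FPKM for all tested genes. NPM1 was highest, with 184 FPKM with compound E and 247 FPKM with DMSO, followed by NCL with 171 FPKM with compound E and 179 FPKM with DMSO, and FBL with 121 FPKM with compound E and 139 FPKM with DMSO. Across the 46 members, the log2 fold change and the log2 FPKM gave Pearson's r = -0.303 and Spearman's rho = -0.177, as a description of genes that share libraries and depth and are not independent.

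**Figure D3:**
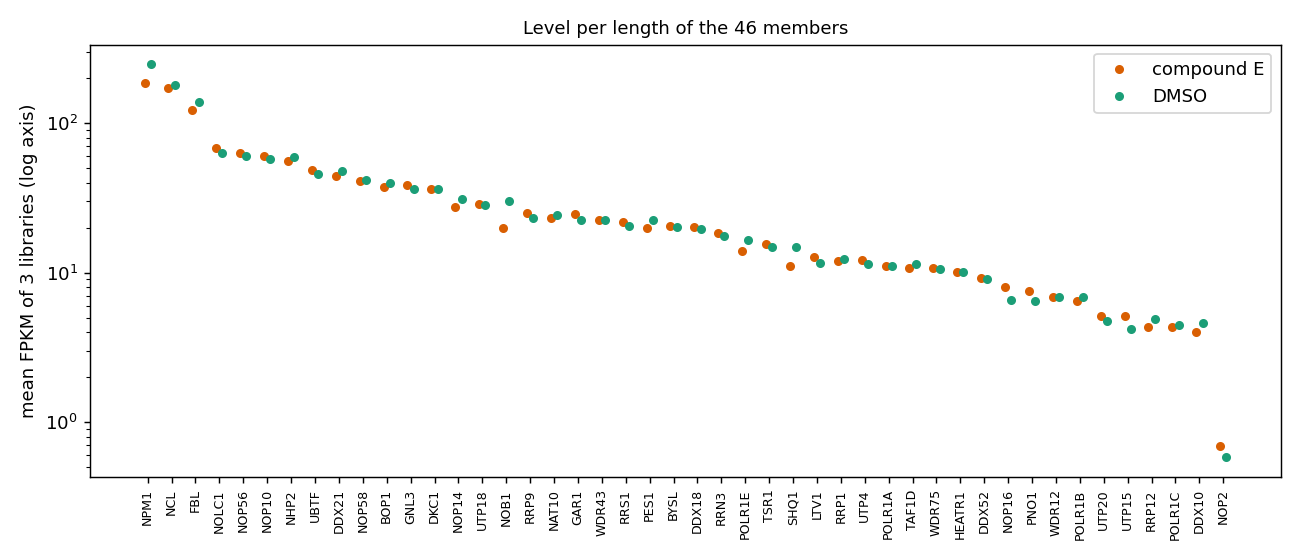
Mean FPKM of 3 libraries for each member, ordered by level on a log axis, with compound E left of DMSO for each gene. NPM1, NCL and FBL stand above 100 FPKM in both groups and NOP2 stands alone at 0.688 FPKM with compound E and 0.585 FPKM with DMSO.

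The members together took a smaller share of the library with compound E. The share of counts was 0.599%, 0.608% and 0.616% with compound E, against 0.654%, 0.647% and 0.644% with DMSO. The groups did not overlap. The members were chosen with earlier results of these data known, so the difference in share was not tested. Without NPM1 the share was 0.530%, 0.536% and 0.545% with compound E, against 0.557%, 0.551% and 0.549% with DMSO, so the groups stayed apart at a smaller distance. NPM1, NCL and DDX21 together took 0.212% ± 0.00567 with compound E and 0.245% ± 0.00282 with DMSO, while the polymerase role took 0.0760% ± 0.000186 with compound E and 0.0757% ± 0.000489 with DMSO (SD, n = 3 each). Counts of mitochondrial genes took 4.87% ± 0.313 with compound E and 5.26% ± 0.0789 with DMSO.

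Genes that rose and genes that fell were also found among the other genes of the pathway. Of 140 further factors tested outside RNA polymerase III, 25 rose and 24 fell, or 35.0% called, with a median log2 fold change of -0.0066. The difference from the members was not tested. Among the 15 other RNA polymerase I and SL1 genes, 3 rose and 2 fell, and 1 and 1 with DESeq2. POLR1D, a subunit shared with RNA polymerase III, fell (84.4 ± 0.785 CPM with compound E, 116 ± 1.502 CPM with DMSO; -0.45, adjusted p = 1.34e-13), and the small subunits POLR2K (0.32, adjusted p = 4.74e-08) and POLR2L (0.36, adjusted p = 0.000137), which every nuclear polymerase holds, rose. The POLR2L call was lost with DESeq2 (adjusted p = 0.0779).

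Among 43 other small subunit factors tested, 7 rose and 2 fell, led by RRP7A (0.49, adjusted p = 8.13e-16), RRP36 (0.47, adjusted p = 2.4e-10) and NOL6 (0.26, adjusted p = 7.63e-07). RRP7A had 186 ± 3.95 CPM with compound E and 133 ± 3.86 CPM with DMSO, a wider step than that of any member that rose. Among 54 other large subunit factors, 13 rose and 10 fell. RSL24D1, a pre-60S protein, fell most, to 122 ± 2.97 CPM with compound E, against 215 ± 8.80 CPM with DMSO (log2 fold change -0.81, adjusted p = 3.04e-22), and NOP53 (-0.34, adjusted p = 2.81e-14) and the helicase DDX54 (-0.41, adjusted p = 1.92e-11) fell as well.

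The RNA exosome, which trims rRNA precursors, had 2 genes that rose and 7 that fell of 17 tested with its helpers. Its core subunits EXOSC5 (-0.42, adjusted p = 8.34e-08) and EXOSC8 (-0.25, adjusted p = 8.64e-06) fell, and the nuclease ISG20L2 (0.18, adjusted p = 0.00195) rose. The count of falls was 3 with DESeq2 and 4 without DMSO library 1, DMSO library 3 or compound E library 1, and the count of rises was 1 without DMSO library 1, DMSO library 2 or compound E library 2. Of 11 further assembly factors of small nucleolar ribonucleoproteins, 3 fell and the others were not called. Those that fell were RUVBL2 (-0.16, adjusted p = 0.000117), ZNHIT6 (-0.17, adjusted p = 0.0119) and ZNHIT3 (-0.14, adjusted p = 0.0239), and RUVBL2 alone kept its call with DESeq2. ZNHIT6 lost the call without DMSO library 1 (0.2), and ZNHIT3 without DMSO library 1 (0.0612), DMSO library 3 (0.0926), compound E library 1 (0.0754) or compound E library 2 (0.0698).

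RNA polymerase III, which makes 5S rRNA and tRNAs, had 4 genes that rose and 6 that fell of 22 tested. The subunit POLR3D fell (66.1 ± 2.33 CPM with compound E, 81.5 ± 2.62 CPM with DMSO; -0.30, adjusted p = 1.53e-07), as did GTF3A, the factor that binds 5S genes (-0.19, adjusted p = 8.35e-06), and GTF3C4 of the promoter complex TFIIIC rose (0.23, adjusted p = 5.66e-06). That is 45.5% of the list called, beside 43.5% of the members, 38.3% of all tested genes and 50.9% of tested genes of at least 10 CPM. The differences were not tested.

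**Figure D4:**
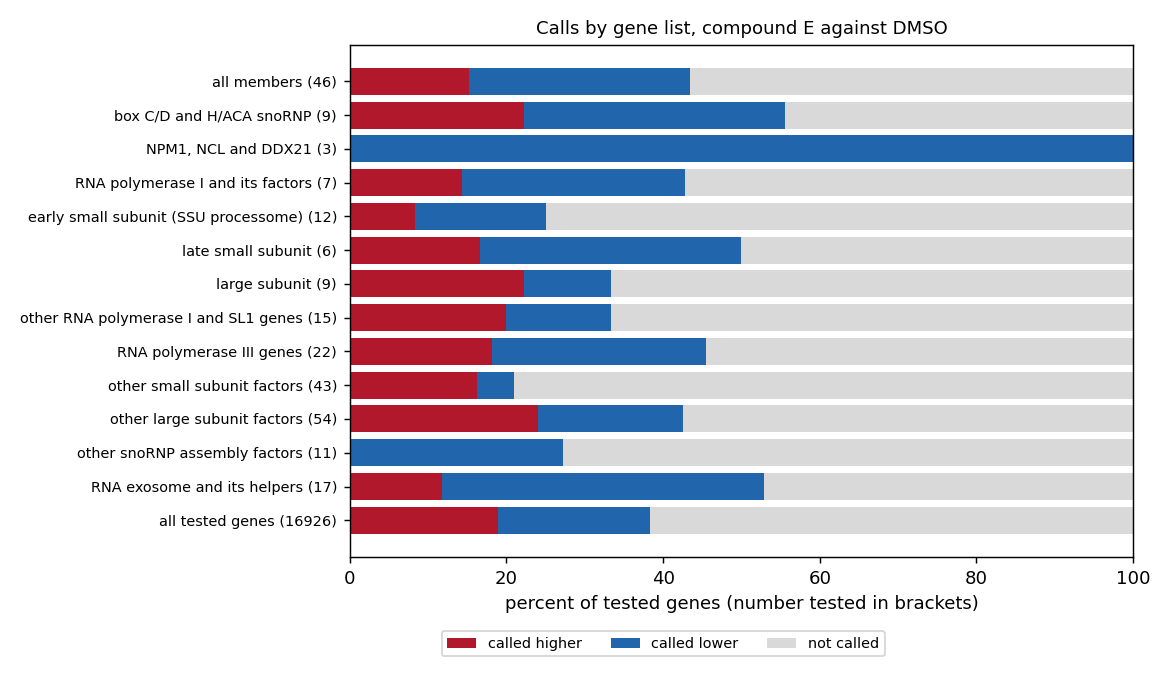
Percent of tested genes called higher or lower with compound E against DMSO in the 46 members, in their 6 roles, in the other lists of the pathway and in all 16926 tested genes; the number tested is in brackets. The members are called in 43.5% and all tested genes in 38.3%, while tested genes of at least 10 CPM, not drawn, are called in 50.9%. NPM1, NCL and DDX21, the smallest role with 3 genes, are all called lower, and the NCL call was lost under 9 of 17 other settings.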

How the data were processed

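Read counts and FPKM per gene were taken from tables deposited by the authors. The counts are whole numbers that were not normalised, per the file headers and values. In the FPKM values deposited by the authors, each is the count divided by exonic length and 1 scaled depth per library. Per the submitters' processing notes, HISAT2 2.0.5, featureCounts 1.5.0-p3 and DESeq2 1.16.1 were used, with no role named. The build, multi-mapping and strand settings are stated in no source used here, and all 58735 genes have the coordinates of GENCODE release 29 on GRCh38.

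Counts were fitted in R 4.3.3 with edgeR 4.0.16 (filterByExpr, TMM, quasi-likelihood F-test, treatment as the only term), which left 16926 genes, and p-values were adjusted by Benjamini-Hochberg. CPM are TMM-scaled. Standard errors are the log2 fold change divided by the square root of F. Alternatives used DESeq2 1.42.0 and limma 3.58.1. Limma was run on log2(FPKM + 1) or log2(FPKM + 0.1), computed here from the FPKM deposited by the authors. On simulated counts for this comparison with 16926 genes and 50 changed at each size, recovery was 44% of those changed 1.2-fold, 62% of those changed 1.5-fold and 94% of those changed 2-fold, with 3.29% false among the calls.

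Library totals were 17316138 to 19845114 counts, and intervals and tests cover these libraries only. The members, the other lists, and the rules were chosen with earlier results of these data known. Values by library are given for called members with a log2 change of at least 0.3 and for the 2 smallest p in each role. The other lists give up to 3 called genes with the smallest p. Other members were added after their values were seen. No row bore the name MIZ1, and other names of that gene were not sought. PWP2 was not tested and DIEXF was matched as UTP25. Promoter windows came from RefSeq (GRCh38.p14).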

Additional observations from a re-analysis of the deposited data

How the results depend on the processing

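Called members numbered 13 to 21 over the 17 alternatives, and no called member changed direction. Members that rose were 4 with DESeq2, 3 with limma on log2(FPKM + 1) without a filter, and 4 to 8 when 1 library was left out, against 7. The last limma setting called 13 members in all, and 2128 genes higher and 1874 lower. In share of FPKM, the members differed by -0.0277 percentage points, compound E minus DMSO, against -0.0403 in share of counts.

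With DESeq2, other RNA polymerase I genes gave 1 higher and 1 lower, exosome genes 1 higher and 3 lower, and snoRNP assembly factors 1 lower. With limma on log2(FPKM + 1), log2(FPKM + 0.1) and unfiltered log2(FPKM + 1), exosome genes gave 1 higher each, with 4, 4 and 2 lower, and snoRNP assembly factors gave 1 lower each. Exosome genes gave 1 higher with upper quartile scaling too. RNA polymerase III genes gave 7 higher and 3 lower with log2(FPKM + 0.1) and 2 lower unfiltered, and other small subunit factors gave 1 lower unfiltered. When 1 library was left out, snoRNP assembly factors gave 0 to 1 higher and 1 to 3 lower, exosome genes 1 to 3 higher and 4 to 5 lower, and RNA polymerase III genes 4 to 6 higher.

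Same-numbered libraries showed no shared deviation (correlations of 0.0103, -0.0191 and 0.000118). Whether they were prepared together is not in the labels, and these correlations cannot show it. With replicate number as a block, 6 members rose and 11 fell, and of all genes 3019 rose and 3119 fell. The counted level of NOP2 was below 5 CPM, and a minimum of 5 CPM in 3 libraries leaves 45 members. Recovery in simulated counts was taken over 16926 genes and not separately at the level of the members. It therefore does not give the share of 1.2-fold member changes that would be missed. Leaving aside NOP2, the single-gene intervals of members not called reached no lower than -0.19 and no higher than 0.26 in log2 fold change. The causes of the differences between settings were not tested.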
